A study of Homo sapiens with 6 samples.

Results

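The 44 genes of DNA replication and of the passage from G1 into S phase were measured in human induced pluripotent stem cell (hiPSC) aggregates grown with and without PEG and heparin. The group holds the replicative helicase and the proteins that load and start it, the sliding clamp, the polymerases, the enzymes of nucleotide supply and the cyclins, kinases and E2F factors of G1/S. Its rule lists gene symbols and sets no threshold on the measured values, and all 44 symbols were found among the 19977 genes listed. As a whole the group was close to level between the media. In E8 with PEG and heparin, 5 of the 44 genes were higher (CCND2, RRM2, CCNE1, E2F3 and CDC6) and 4 were lower (CDK6, TK1, CDT1 and RRM1), and the other 35 did not pass the test. The share called was 20.5%, against 25.3% of all genes tested. The largest fitted difference of the 44 was 1.34-fold (CCND2), and no subunit of the MCM2-7 helicase was called.

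Cells copy their genome once per cycle because loading and firing of origins are kept apart in time. In G1, the origin recognition complex, CDC6 and CDT1 load the MCM2-7 helicase onto DNA, and in S phase CDC45 and the GINS complex join the helicase and start it. Entry into S phase follows the D-type and E-type cyclins, whose kinases inactivate the retinoblastoma protein and release E2F factors to transcribe replication genes. Pluripotent stem cells are known for a short G1 phase and for replication genes that are transcribed at high levels.

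The cells were NCRM-1, a wild type hiPSC line reprogrammed from cord blood cells, seeded as single cells and grown as aggregates for 4 days in vertical wheel bioreactors, with 50% of the medium replaced on day 2. All aggregates were in Essential 8 (E8), a defined medium for pluripotent cells. In the PEG and HS group (n = 3 libraries) it held 10 mg/ml polyethylene glycol (PEG) and 0.1 µg/ml heparin sodium salt (HS), and in the E8 control group (n = 3 libraries) it held neither. The labels conflict on one point, since a shared treatment text names PEG and heparin for all 6 libraries, and groups were taken from the treatment field of each library. The labels read as 1 bioreactor per medium, so the vessel and the medium cannot be told apart. The p-values therefore measure the spread between libraries, which may be technical.

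Each library held between 26991279 and 36185138 counts, and no library stood apart (correlation of log2 values within a medium 0.991 to 0.992). Levels are CPM, in which the counts of each library are scaled to the same total with TMM factors, as mean ± SD of 3 libraries. Differences are log2 fold changes of PEG and HS over E8 control, each with its standard error (SE), from the edgeR quasi-likelihood fit of all genes. A gene was called at a Benjamini-Hochberg adjusted p under 0.05 over the 16505 genes tested, and every adjusted p below is from that test unless another tool is named. All 44 members passed the filter on low counts.

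The aggregates expressed the markers of pluripotent cells in both media. All 8 pluripotency markers lay between 126 and 2239 CPM in the group means, and in PEG and HS 4 of them were higher and 2 lower, with log2 fold changes of 0.55 for NANOG, 0.36 for L1TD1, 0.30 for DPPA4, -0.30 for LIN28A and -0.59 for SOX2. All 7 early neural markers were called lower in PEG and HS, and none of the 7 was at 0. Their summed level was 568.6 to 607 CPM with PEG and HS against 777 to 808 CPM in E8 control. Most of this sum was NES (543 ± 20.5 CPM against 643 ± 14.0 CPM), the least changed of the 7 at -0.24. SOX1, PAX6 and ZIC1 each lay under 8 CPM in both media. The largest falls were log2 fold changes of -2.37 for LHX5, -2.10 for OTX2 and -1.70 for SOX1. The paper names SOX1, OLIG3, LHX5 and OTX2 as lowered in these data, so the fall of this list was known beforehand. The summed trophectoderm and amnion markers were 0.561 to 1.48 CPM with PEG and HS against 6.51 to 6.86 CPM in E8 control. Most of this sum was TFAP2A, at 0.60 ± 0.27 CPM with PEG and HS against 6.00 ± 0.23 CPM in E8 control. Of 4 tested, 2 were called lower, TFAP2A and, on few counts, HAND1. The HAND1 call was lost without any 1 of 4 libraries, at adjusted p up to 0.0924. GATA3 and ISL1, each under 1 CPM, were not called. Mesoderm and endoderm markers each summed to under 8 CPM in each library, with 1 of 5 and 0 of 2 tested called (TBX6, lower, lost without Control replicate 3 at adjusted p = 0.0646). SOX17 and CDX2 were at 0 in all but 1 library of each medium. The part of these markers in the differences below was not tested, and in bulk aggregates fewer cells of a type and less RNA per cell cannot be told apart.

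Across all genes tested, 25.3% were called, 12.2% as higher with the additives and 13.1% as lower. Among the members 9 of 44 (20.5%) were called, 5 higher and 4 lower. With scaling by library size alone, 10 members were called, 7 higher and 3 lower. The values of the libraries did not overlap between the media for 17 members (38.6%), against 39.3% of all genes tested. Both shares of the members lay near those of all genes. When each gene was tested against a 1.2-fold change, 1 member, CCND2, was called, against 5.26% of all genes, so the calls of the other 8 were lost under this test. The members' differences were small, with a median log2 fold change of 0.02 (all genes 0.0031) and a median size, without regard to sign, of 0.067 (all genes 0.12). A difference under 0.1 in size was found in 34 of 44 members (77.3%) and in 43.7% of all genes, and the 95% interval of the difference lay within 1.2-fold in 38 members (86.4%) and in 48.2% of all genes. Intervals also narrow with a gene's count, so these shares describe the members and do not set them apart.

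**Figure D1:**
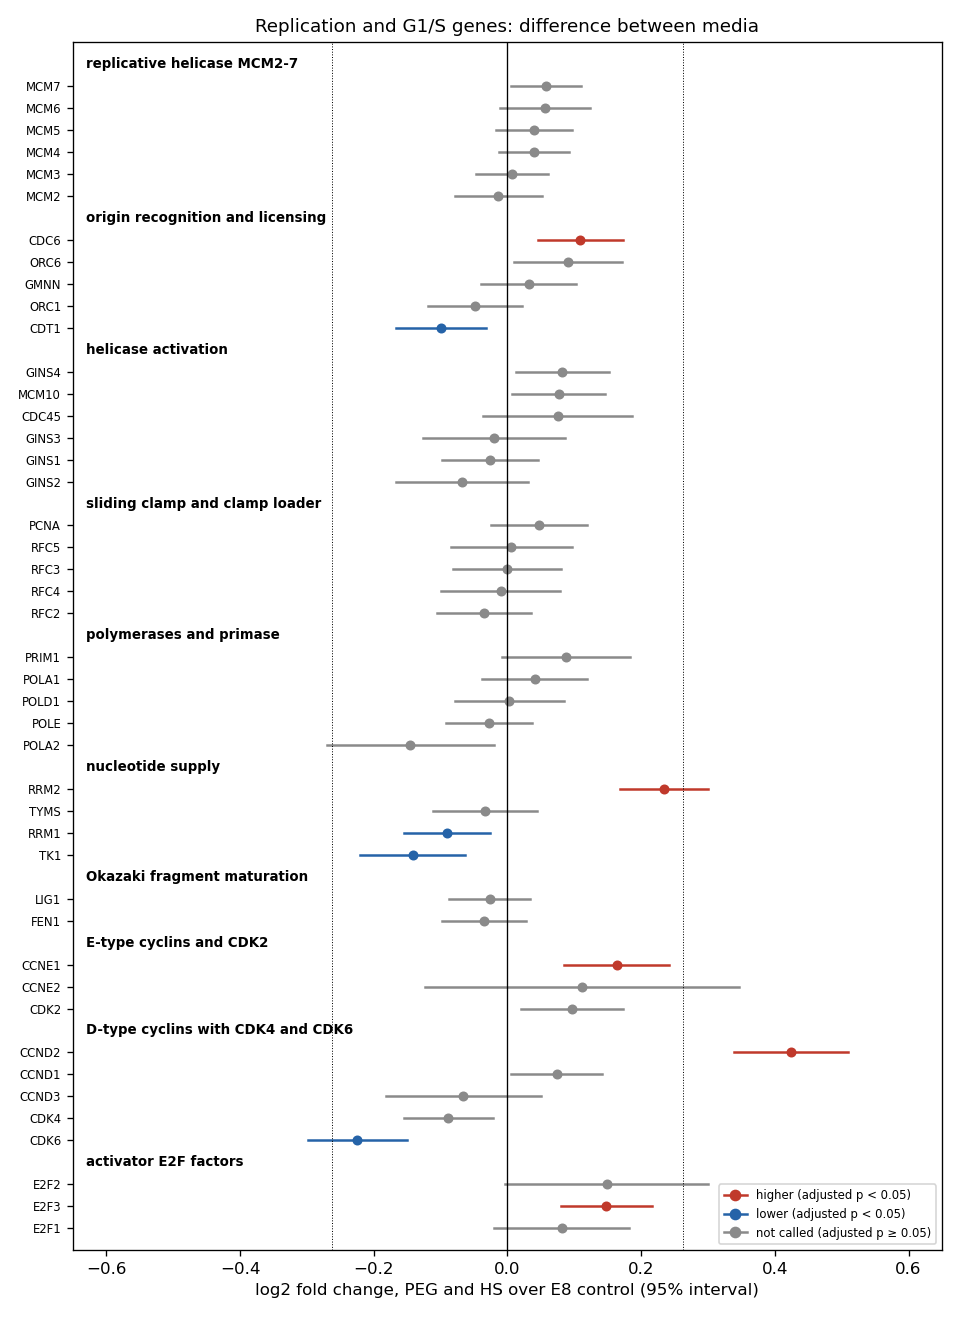
Fitted log2 fold change of PEG and HS over E8 control for each of the 44 members, with its 95% interval, grouped by role. The horizontal axis is the log2 fold change, dotted lines mark a 1.2-fold change in each direction, and the 9 coloured genes (5 higher, 4 lower) are those with an adjusted p under 0.05.

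Promoters are shown first because E2F binding is what textbook accounts of these genes share. RefSeq (GRCh38.p14) gave windows of 300 bases, 250 before to 50 after the start of transcription, for 37 of the 44 members and for 15321 genes of the count table, and the first window listed for each gene was used. No window was held for MCM4, MCM5, GINS4, CCNE2, CDK2, CCND1 and CCND2. The E2F words TTTCCCGC, TTTCGCGC, TTTGCCGC and TTTGGCGC were searched on both strands, and on opposite strands they can overlap in 1 site. Such a word stood in 19 of 37 member windows (51.4%), in 4.48% of all windows and in 3 of 33 windows of mitosis and G2/M genes (9.09%). The letters CCAAT stood in 51.4% of member windows, in 36.6% of all windows and in 69.7% of those of mitosis genes. The cell cycle homology region words TTTGAA and TTCGAA, known from promoters of mitotic genes, stood in 3 member windows (8.11%), in 13.5% of all windows and in 75.8% of those of mitosis genes. The E2F words thus stood in a larger share of the members' windows than of all windows, and the mitotic words in a smaller one.

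**Figure D2:**
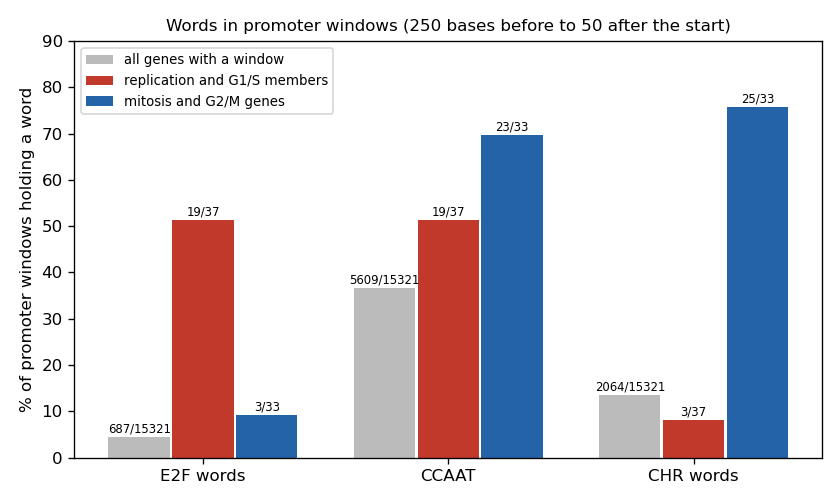
Share of promoter windows that hold at least 1 word of each kind, in percent on a linear axis, for all genes with a window, the members and the mitosis and G2/M genes. The number above each bar is the count of windows with the word over the count of windows, 19 of 37 for E2F words among the members.

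An E2F word stood in 3 of 8 windows of called members (37.5%), 2 of 4 of those called higher and 1 of 4 of those called lower, and in 16 of 29 of those not called (55.2%). The stretches below, on GRCh38.p14, are shown to compare a helicase gene and an E2F gene that were not called with one gene called higher and one called lower. Capitals mark the E2F words, which in MCM6 are 4 words in 2 sites. MCM6 runs for 134 bases up to base -49 from its start (chr2:135876492-135876625, minus strand), E2F1 from -63 to -1 (chr20:33686386-33686448, minus strand), E2F3 from -83 to -16 (chr6:20401796-20401863, plus strand) and CDT1 from -65 to -1 (chr16:88803724-88803788, plus strand), all upstream of the transcript.
MCM6: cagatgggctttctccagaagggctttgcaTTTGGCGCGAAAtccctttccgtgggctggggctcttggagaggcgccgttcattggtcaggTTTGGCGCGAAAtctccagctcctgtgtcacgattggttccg
E2F1: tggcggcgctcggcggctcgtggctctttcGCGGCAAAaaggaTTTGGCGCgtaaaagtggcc
E2F3: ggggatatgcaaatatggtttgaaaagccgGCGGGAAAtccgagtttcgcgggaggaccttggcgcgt
CDT1: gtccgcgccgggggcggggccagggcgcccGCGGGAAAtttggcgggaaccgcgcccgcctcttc

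The MCM2-7 helicase unwinds the DNA ahead of the fork, and none of its subunits was called. Summed over the 6 subunits, the level was 2151 ± 26.5 CPM with the additives and 2105 ± 16.0 CPM in E8 control. MCM2 was 251, 263 and 266 CPM with PEG and HS against 266, 268 and 254 CPM in E8 control. MCM3 was 447, 457 and 461 CPM with PEG and HS against 449, 459 and 450.3 CPM in E8 control. The values of both genes overlapped between the media, and their fitted differences were -0.01 and 0.01 on the log2 scale.

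MCM4 was 452, 451 and 458 CPM with PEG and HS against 447, 437 and 439.7 CPM in E8 control. MCM5 was 313, 321 and 318 CPM with PEG and HS against 316, 307 and 303 CPM in E8 control. The control libraries of MCM5 reached into the range of the others, and those of MCM4 did not. MCM6, whose promoter holds the pair of E2F sites printed above, was 220.4, 209.8 and 228 CPM with PEG and HS against 209, 214 and 210.1 CPM in E8 control. It overlapped between the media. MCM7 was 443, 447 and 449.9 CPM with PEG and HS against 424, 434 and 429.5 CPM in E8 control. Every PEG and HS library was above every control library for MCM4 and MCM7, by 2.80% and 4.09% in the fit. None of the 6 passed the test, the nearest being MCM7 (log2 fold change 0.06 ± 0.02 SE, adjusted p = 0.1004), and all 6 intervals lay within 1.2-fold. MCM7 was called under scaling by library size alone (adjusted p = 0.0466, range over its alternatives without the 1.2-fold test 0.0466 to 0.295).

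Among the licensing genes, which mark and prepare origins in G1, CDC6 was higher and CDT1 was lower in PEG and HS. CDC6, the ATPase that helps load the helicase (chr17:40287879-40304657, plus strand), was 130.0, 124 and 129 CPM with PEG and HS against 119, 118 and 118 CPM in E8 control. The groups did not overlap, and the difference was 0.11 ± 0.03 (SE) on the log2 scale, or 7.86% (adjusted p = 0.0135). Without PEG and HS replicate 1 the call was lost (adjusted p = 0.0666, range over its alternatives without the 1.2-fold test 0.00831 to 0.0666). CDT1, the partner of CDC6 in loading (chr16:88803789-88809258, plus strand), was 118, 119 and 119 CPM with PEG and HS against 125, 132 and 125 CPM in E8 control. Its difference was -0.10 ± 0.03 (SE) on the log2 scale (adjusted p = 0.0303), with no overlap. The CDT1 call was lost without PEG and HS replicate 1, 2 or 3 or without Control replicate 2 (adjusted p = 0.0988, 0.0553, 0.0575 and 0.139, range over its alternatives without the 1.2-fold test 0.0153 to 0.139).

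ORC6, a subunit of the origin recognition complex, was 63.3, 61.5 and 60.9 CPM with PEG and HS against 55.8, 60.5 and 58.0 CPM in E8 control, with no overlap. It was not called (log2 fold change 0.09 ± 0.04 SE, adjusted p = 0.0969). Other genes share 14.1% of its transcript sequence. ORC1, the largest subunit, was 70.4 ± 1.48 CPM against 72.8 ± 1.29 CPM, and GMNN, the inhibitor of CDT1, was 74.8 ± 1.61 CPM against 73.3 ± 1.65 CPM. Both overlapped between the media. The 5 licensing members therefore held 1 call in each direction (40%, against 25.3% of all genes tested), with a median log2 fold change of 0.03. On the further list of replication genes below, ORC2 was called higher (log2 fold change 0.11 ± 0.03 SE, adjusted p = 0.0308). ORC3, ORC4 and ORC5 on that list were not called.

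None of the 6 members that start the loaded helicase was called. On the further list of replication genes below, DBF4 and TICRR were called higher and DONSON lower (adjusted p = 0.0305, 0.0474 and 0.0298). CDC7, TOPBP1, RECQL4 and MTBP on that list were not called. The DONSON call was lost without PEG and HS replicate 1, 2 or 3 or without Control replicate 1 or 3. MCM10, which helps CDC45 and GINS remodel the helicase, was 72.1, 72.4 and 74.4 CPM with PEG and HS against 67.9, 70.3 and 69.2 CPM in E8 control. CDC45 was 27.6, 25.6 and 28.1 CPM with PEG and HS against 25.7, 26.8 and 24.8 CPM in E8 control. GINS4 was 86.8, 83.5 and 87.9 CPM with PEG and HS against 81.2, 80.0 and 82.7 CPM in E8 control. MCM10 and GINS4 were above E8 control in every library, with log2 fold changes of 0.08 in both, and CDC45 overlapped. Neither of the first pair passed the test (adjusted p = 0.101 for MCM10 and 0.0816 for GINS4), and GINS4 was called without PEG and HS replicate 2 (adjusted p = 0.0484, range over its alternatives without the 1.2-fold test 0.0484 to 0.24). The other subunits of GINS, the ring that bridges helicase and polymerase, overlapped, with log2 fold changes of -0.03 for GINS1, -0.07 for GINS2 and -0.02 for GINS3.

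PCNA, the ring that holds polymerases on DNA, was 212, 207 and 225 CPM with PEG and HS against 206, 204 and 214 CPM in E8 control. The groups overlapped and the difference was 0.05 ± 0.03 (SE) on the log2 scale (adjusted p = 0.339). The 4 subunits among the members of the clamp loader that opens this ring, RFC2 to RFC5, differed by -0.04 to 0.01 on the log2 scale. RFC2 alone of them did not overlap, at 64.2 ± 1.08 CPM against 65.8 ± 0.664 CPM, and it was not called (adjusted p = 0.488). The members of clamp and loader together had a median log2 fold change of -0.0009. RFC1, a further subunit of the loader, is on the list of replication genes below and was not called (log2 fold change 0.0016).

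None of the 5 polymerase and primase members was called. On the further list of replication genes below, the polymerase subunits POLD3 and POLE4 were called lower and the primase subunit PRIM2 higher. POLD2, POLD4, POLE2 and POLE3 on that list were not called. The POLE4 call was lost without any 1 of the 6 libraries and the PRIM2 call without PEG and HS replicate 3. POLA2, the second subunit of polymerase alpha, which starts each new strand, was 34.0, 37.0 and 32.7 CPM with PEG and HS against 40.5, 39.3 and 35.0 CPM in E8 control. The groups overlapped, since PEG and HS replicate 2 was above Control replicate 3, and the log2 fold change was -0.15 ± 0.06 (SE, adjusted p = 0.0849). It was called lower without PEG and HS replicate 2 (adjusted p = 0.0373), without Control replicate 3 (0.0151) and with the replicate block (0.0298), within a range over its alternatives without the 1.2-fold test of 0.0151 to 0.266. POLA2 shares 16.3% of its transcript sequence with another listed gene (ENSG00000285816), which itself was 18.8 ± 4.58 CPM with PEG and HS against 15.4 ± 1.31 CPM in E8 control, so its level is uncertain.

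PRIM1, the catalytic subunit of the primase that lays the first RNA bases, was 36.8, 34.0 and 35.6 CPM with PEG and HS against 33.1, 32.9 and 34.2 CPM in E8 control. The groups overlapped, and the log2 fold change was 0.09 ± 0.04 (SE, adjusted p = 0.182). The catalytic subunits of polymerases alpha, delta and epsilon lay within 0.05 of level, with log2 fold changes of 0.04 for POLA1, 0.0029 for POLD1 and -0.03 for POLE. FEN1 and LIG1, which trim and seal the fragments of the lagging strand, were at 120.3 ± 1.75 CPM against 123 ± 2.58 CPM and at 118 ± 0.695 CPM against 119.9 ± 1.79 CPM, and both overlapped.

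Of the 4 nucleotide supply genes 1 was higher and 2 were lower in PEG and HS (75%, against 25.3% of all genes tested). RRM2, the small subunit of ribonucleotide reductase, which is the limiting one in S phase (chr2:10120698-10211725, plus strand), was 286, 289.9 and 308 CPM with PEG and HS against 255, 248 and 250.3 CPM in E8 control. The groups did not overlap, and RRM2 was 17.6% higher in the fit, at a log2 fold change of 0.23 ± 0.03 (SE, adjusted p = 4.19e-05). RRM1, the large subunit of the same enzyme (chr11:4094707-4138932, plus strand), was 128, 128 and 134 CPM with PEG and HS against 137, 137 and 142 CPM in E8 control. It was lower with no overlap, at -0.09 ± 0.03 (SE) on the log2 scale (adjusted p = 0.0392). Its call was lost without PEG and HS replicate 1 or 2, without Control replicate 1, 2 or 3 and under scaling by library size alone (adjusted p = 0.139, 0.108, 0.0658, 0.0508, 0.134 and 0.0562, range over its alternatives without the 1.2-fold test 0.0199 to 0.139).

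TK1, the thymidine kinase of the salvage route (chr17:78174091-78187233, minus strand), was 63.2, 63.0 and 61.1 CPM with PEG and HS against 71.8, 68.5 and 66.5 CPM in E8 control. It was lower with no overlap, at -0.14 ± 0.04 (SE) on the log2 scale (adjusted p = 0.0102). Its call held without each library in turn, with a highest adjusted p of 0.04999. TYMS, which makes thymidylate by the other route, was 76.4 ± 3.35 CPM against 78.2 ± 1.22 CPM with overlap and was not called. The end of TYMS overlaps ENOSF1 on the other strand over 39.9% of its exons, and ENOSF1 was called higher (43.1 ± 3.77 against 36.0 ± 1.87 CPM), so reads of the pair may be split if strand was not used in counting.

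Of the D-type cyclins and their kinases, which open G1 progression, CCND2 was higher and CDK6 lower. CCND2, cyclin D2 (chr12:4269771-4305353, plus strand), was 64.7, 68.3 and 70.1 CPM with PEG and HS against 50.5, 52.0 and 48.9 CPM in E8 control. The lowest PEG and HS library was well above the highest control library, and CCND2 was 34.2% higher in the fit, at a log2 fold change of 0.42 ± 0.04 (SE, adjusted p = 1.20e-06). It was the only member called against a 1.2-fold change (adjusted p = 0.00305). CCND2 overlaps another listed gene (ENSG00000285901) on its strand over 12.5% of its exons, and that gene was 10.5 ± 0.799 CPM with PEG and HS against 9.36 ± 1.13 CPM in E8 control with overlap.

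The other D-type cyclins were not called. CCND1, cyclin D1, was 310.5, 320.2 and 326 CPM with PEG and HS against 294, 298 and 317 CPM in E8 control. CCND3, cyclin D3, was 20.3, 20.8 and 20.1 CPM with PEG and HS against 22.5, 20.9 and 20.6 CPM in E8 control. CCND1 overlapped and was not called, at 0.07 ± 0.03 (SE) on the log2 scale (adjusted p = 0.108), and it was called higher with the replicate block (0.0337) and without Control replicate 3 (0.0241), within a range over its alternatives without the 1.2-fold test of 0.0241 to 0.377. CCND3 also overlapped, at -0.07 ± 0.05 (SE) on the log2 scale (adjusted p = 0.422).

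CDK6, a kinase partner of the D-type cyclins (chr7:92604921-92836573, minus strand), fell while CCND2 rose. It was 85.5, 83.1 and 82.0 CPM with PEG and HS against 94.4, 96.7 and 101 CPM in E8 control. The groups did not overlap, and the log2 fold change was -0.22 ± 0.03 (SE, adjusted p = 0.000178), the largest fall of the 44. CDK4, the other partner, was 135, 136 and 131 CPM with PEG and HS against 139.8, 147 and 140.3 CPM in E8 control, also with no overlap. CDK4 was not called at -0.09 ± 0.03 (SE) on the log2 scale (adjusted p = 0.0526), and it was called lower in 7 of its alternatives, with adjusted p from 0.0282 to 0.207 over all but the 1.2-fold test. The exons of CDK4 overlap TSPAN31 on the other strand over 44.2% of their length, and TSPAN31 was 20.3 ± 0.692 CPM against 21.2 ± 1.24 CPM with overlap.

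The E-type cyclins and CDK2, which carry the cell into S phase, all had positive log2 fold changes. Of the 3, 1 was called (33.3%, against 25.3% of all genes tested). CCNE1, cyclin E1 (chr19:29811991-29824312, plus strand), was 54.3, 51.6 and 53.1 CPM with PEG and HS against 47.3, 47.9 and 46.8 CPM in E8 control. It was 1.12-fold higher in the fit with no overlap, at a log2 fold change of 0.16 ± 0.04 (SE, adjusted p = 0.00395). CCNE2, cyclin E2, was 5.84, 4.67 and 5.20 CPM with PEG and HS against 5.15, 4.53 and 4.93 CPM in E8 control, the lowest level of the 44, per length as well, with overlap. Its difference of 0.11 ± 0.11 (SE) on the log2 scale was not resolved at this depth, and 37% of its exons lie over INTS8 on the other strand. CDK2 was 56.8, 56.1 and 56.2 CPM with PEG and HS against 53.7, 53.5 and 51.2 CPM in E8 control. It did not overlap and was not called, at 0.10 ± 0.04 (SE) on the log2 scale (adjusted p = 0.0625), and it was called under scaling by library size alone (0.0427, range over its alternatives without the 1.2-fold test 0.0427 to 0.202).

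Of the activator E2F factors, which transcribe many of the genes above, E2F3 was called higher. E2F3 (chr6:20401879-20493714, plus strand) was 101, 101 and 98.3 CPM with PEG and HS against 88.1, 90.03 and 92.8 CPM in E8 control. The groups did not overlap, and the log2 fold change was 0.15 ± 0.03 (SE, adjusted p = 0.00288). E2F2 was 13.0, 11.9 and 12.3 CPM with PEG and HS against 12.05, 11.1 and 10.5 CPM in E8 control. E2F1 was 51.6, 52.9 and 47.7 CPM with PEG and HS against 49.3, 49.3 and 45.3 CPM in E8 control. Both overlapped and were not called, with log2 fold changes of 0.15 ± 0.07 (SE, adjusted p = 0.147) for E2F2 and 0.08 ± 0.05 (SE, adjusted p = 0.239) for E2F1.

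**Figure D3:**
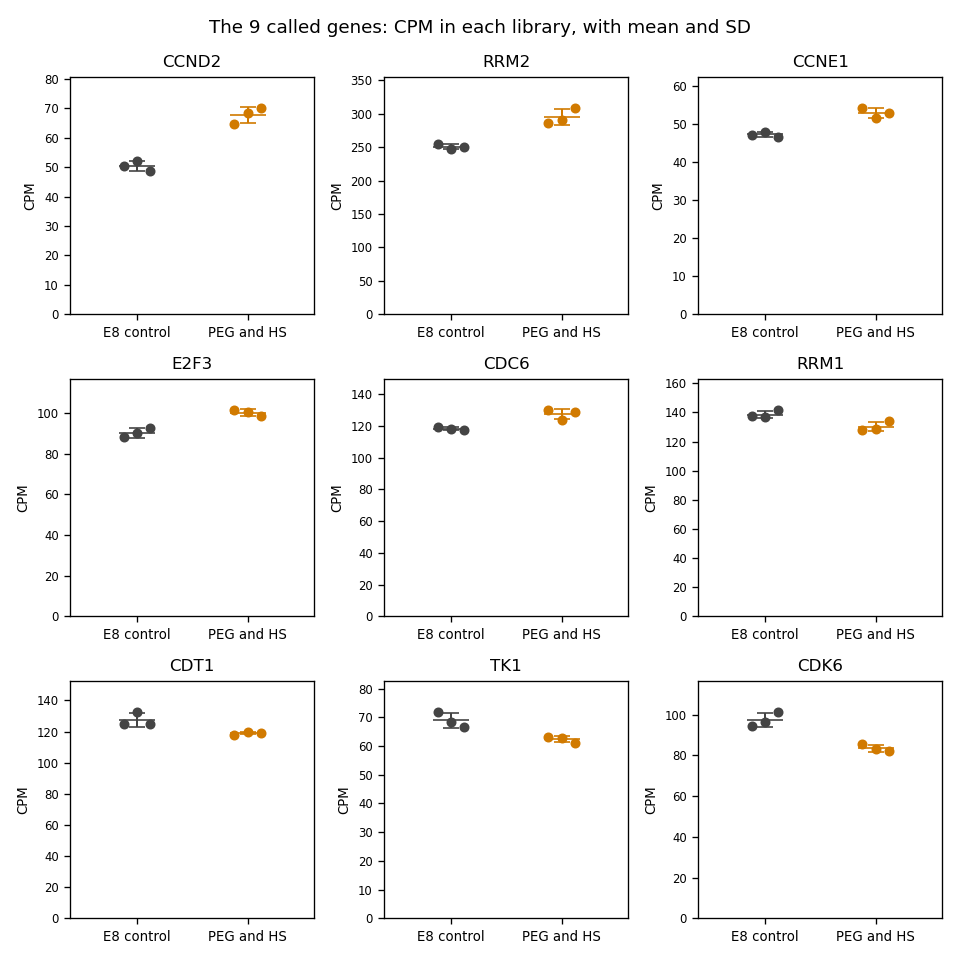
CPM in each library for the 9 called members, 1 panel per gene, with the mean and SD of 3 libraries and a vertical axis from 0. In every panel the 3 PEG and HS points lie wholly above (CCND2, RRM2, CCNE1, E2F3, CDC6) or wholly below (RRM1, CDT1, TK1, CDK6) the 3 E8 control points.

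Of the 9 calls, 6 held without each library in turn (CCND2, RRM2, CCNE1, E2F3, CDK6 and TK1), and those of CDC6, CDT1 and RRM1 did not. Summed over the 44 members, the level was 5531, 5553 and 5649 CPM with PEG and HS against 5465, 5472 and 5456 CPM in E8 control. Each PEG and HS library was above each control library, and the means differed by 2.07%. Abundant genes weigh most in this sum, in which RRM2 was 295 ± 11.8 CPM against 250.9 ± 3.50 CPM. Of the 44 members 25 had positive and 19 negative log2 fold changes.

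Levels can be set against each other only per length, so CPM was divided by the kilobases of merged exons of each gene. In E8 control the order ran from PCNA (148 ± 3.70 CPM per kilobase) over MCM3 (124 ± 1.39), MCM7 (86.5 ± 1.03) and CCND1 (63.6 ± 2.56) to FEN1 (56.1 ± 1.17) and MCM2 (55.7 ± 1.54). FEN1 and MCM2 did not differ beyond their spread, nor did CDT1 (46.2 ± 1.599), CDK4 (46.1 ± 1.38) and MCM4 (44.8 ± 0.557). The low end was held by POLA2 (3.19 ± 0.239), E2F2 (2.06 ± 0.142) and CCNE2 (1.11 ± 0.0724). Cyclin D1 was thus the leading D-type cyclin per length, with CCND2 at 6.32 ± 0.198 and CCND3 at 3.71 ± 0.177, and cyclin E1 (19.2 ± 0.227) stood far above cyclin E2. In PEG and HS, CCND2 was at 8.48 ± 0.341 CPM per kilobase, still far under CCND1 at 67.0 ± 1.69. These levels depend on the length used. With the longest transcript in place of merged exons, PCNA stayed first at 152.8 CPM per kilobase in E8 control, MCM4 moved from 10th to 4th at 81.1, CCND3 at 8.93 stood above CCND2 at 7.37, and CCNE2 stayed last at 1.46.

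**Figure D4:**
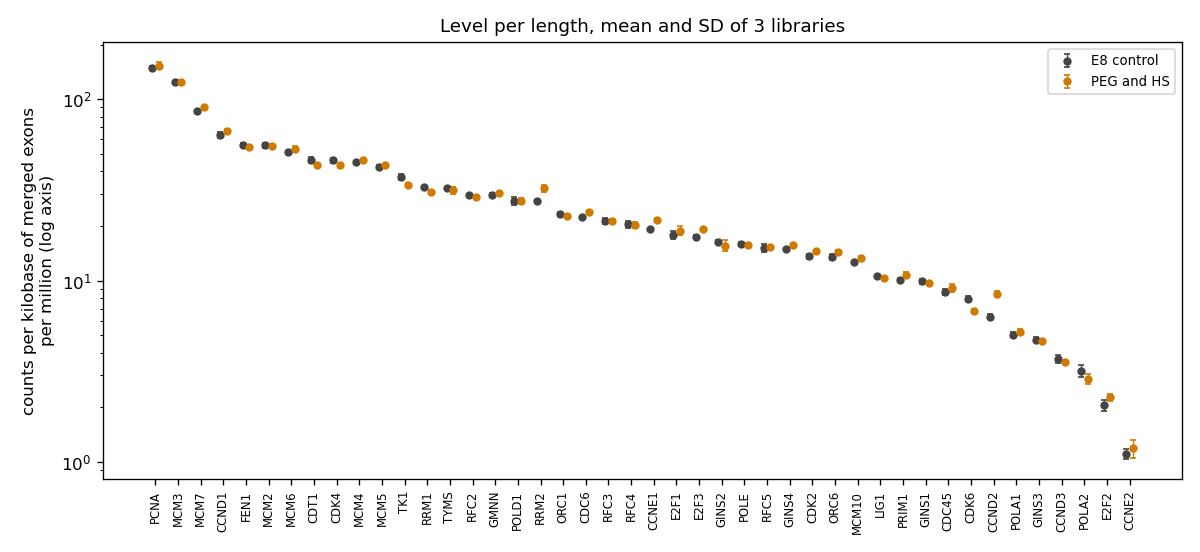
Level per length of each member in CPM per kilobase of merged exons, on a log axis, as mean and SD of 3 libraries in each medium, ordered by the E8 control level. The order runs from PCNA at 148 to CCNE2 at 1.11 in E8 control, and the points of the media nearly coincide for most genes, with CCND2 the clearest exception.

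A further list of 47 replication genes also showed small differences. It held 7 genes called higher and 6 called lower (27.7%), with a median log2 fold change of 0.01 and a median size of 0.068, and with scaling by library size alone 8 higher and 4 lower. WDHD1, which ties polymerase alpha to the helicase, was 109, 103 and 111 CPM with PEG and HS against 133, 144 and 145 CPM in E8 control. It was lower without overlap, at -0.39 ± 0.04 (SE) on the log2 scale (adjusted p = 1.84e-06), the largest fall of this list. DCK, a salvage kinase for deoxycytidine, was 28.4, 28.1 and 27.7 CPM with PEG and HS against 24.4, 22.9 and 24.9 CPM in E8 control. Its rise of 0.22 ± 0.05 (SE) on the log2 scale (adjusted p = 0.00407) was the largest of the list. PRIM2, the large primase subunit, and RNASEH2C, a subunit of the nuclease that removes RNA from DNA, were higher at 0.14 each, and POLE4, a small subunit of polymerase epsilon, and DONSON, an initiation factor, were lower at -0.21 and -0.16. DESeq2 called 5 of the 47 and leaving out 1 library at a time left 4 to 7, and the calls of PRIM2, RNASEH2C, POLE4 and DONSON were among those lost when 1 library or another was left out. Of these, PRIM2 has 19.7% of its sequence in common with other transcripts and RNASEH2C overlaps KAT5 on the other strand over 28.9% of its exons.

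Among 28 other regulators of G1/S, 1 was called higher and 5 lower (21.4%), with a median log2 fold change of -0.01. Of the 7 inhibitors of cyclin-dependent kinases on this list, 2 were called, both lower, where 25.3% of all genes were called and 13.1% were called lower. The other 5 were not called. Of these, CDKN2A, CDKN2B and CDKN2C were under 1 CPM in both media, and CDKN2D was at 1.86 CPM against 1.97 CPM. CDKN1A was at 11.1 CPM against 10.1 CPM, with a log2 fold change of 0.14 ± 0.08 (SE, adjusted p = 0.226). CDKN1C (p57) was 16.9, 17.4 and 19.9 CPM with PEG and HS against 25.9, 29.2 and 28.2 CPM in E8 control. It was lower at -0.62 ± 0.07 (SE) on the log2 scale (adjusted p = 4.85e-06), where the largest fall among the members was that of CDK6. CDKN1B (p27) was 29.1, 29.8 and 29.4 CPM with PEG and HS against 37.7, 37.9 and 35.9 CPM in E8 control, lower at -0.34 ± 0.04 (SE, adjusted p = 3.41e-05). SKP2, part of the ligase that marks p27 for degradation, was the only one higher, at 95.6, 96.8 and 95.9 CPM against 88.3, 86.7 and 89.3 CPM and 0.13 ± 0.03 (SE) on the log2 scale (adjusted p = 0.00604). None of these 3 genes overlapped between the media. CCNA1, cyclin A1, was lower at -0.67 ± 0.24 (SE, adjusted p = 0.0489) at a level near 1 CPM, and its call was lost without any 1 of the 6 libraries.

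The mitosis and G2/M genes, the next phase of the cycle, were also close to level. Of 40 genes, 4 were called higher and 3 lower (17.5%), with a median log2 fold change of 0.01 and a median size of 0.038, and with upper quartile scaling 3 higher and 5 lower. BUB3 (0.26 ± 0.03 SE, adjusted p = 2.90e-06) and BUB1B (0.15 ± 0.03 SE, adjusted p = 0.00245) were higher and BUB1 (-0.35 ± 0.03 SE, adjusted p = 8.05e-07) was lower, all 3 being parts of the spindle checkpoint. CDC25B, a phosphatase that activates CDK1, and PLK1, a mitotic kinase, were lower at -0.30 and -0.11. CENPE, a kinetochore motor, was higher at 0.15 with overlap, and its call was lost without any 1 of 5 libraries.

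**Figure D5:**
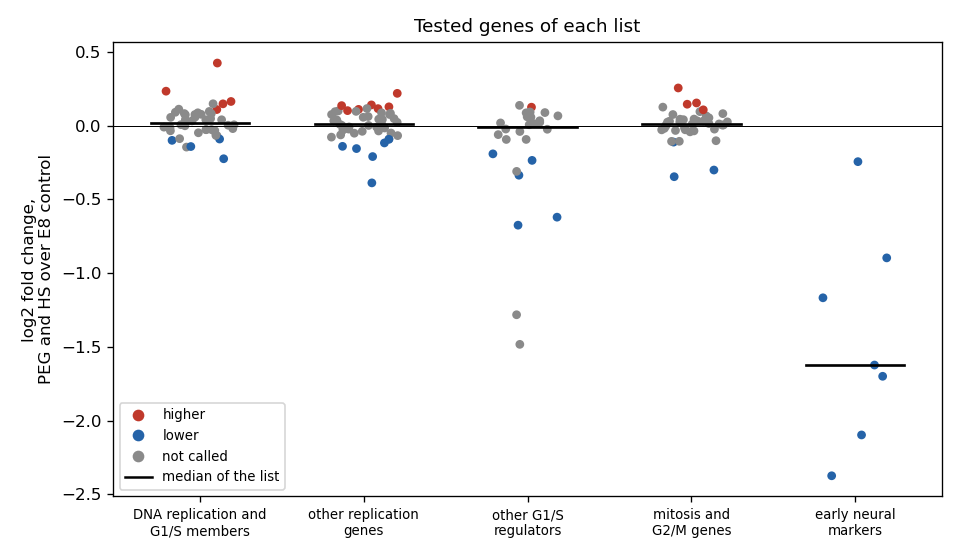
Log2 fold change of PEG and HS over E8 control for each tested gene of the members, the 3 related lists and the early neural markers, 1 point per gene, coloured by call, with the median of each list as a bar. The medians of the 4 cell cycle lists lie between -0.01 and 0.02, and the 7 early neural markers lie between -2.37 and -0.24. The neural list holds genes that the paper names as lowered in these data, so its fall was known beforehand.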

How the data were processed

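Polyadenylated RNA was sequenced in 6 libraries. The authors prepared stranded libraries, trimmed reads with Trim Galore 0.6.7, mapped them to GRCh38 with STAR 2.6.1 and deposited raw counts per gene, 1 library per file. Not given in the sources used here are the program that counted, whether it used strand, how it treated reads with several matches, and the annotation release. GENCODE 44 gave symbols and coordinates for 19916 of 19977 identifiers.

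Genes were tested if their counts summed to 10 or more over the libraries. After TMM scaling, the quasi-likelihood test of edgeR 4.0.16 (glmQLFit, then glmQLFTest, in R 4.3.3) compared PEG and HS with E8 control without covariates, and p-values were adjusted by Benjamini-Hochberg over all genes tested. Per-library CPM used the same factors, which were 0.994 to 1.01. The common biological coefficient of variation was 3.12%. With 3 libraries against 3 an exact permutation test of 1 gene cannot go below 0.1, so none was used. Every pair of replicates differed by more than counting error (chi-square over its degrees of freedom 2.61 to 3.60). Shared sequence is the share of a gene's 31-base transcript words that also occur in other genes.

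The members and all lists were chosen with earlier results of these data known. Values in each library are given for called members without overlap, the 20 with the largest differences, MCM2 to MCM7, PCNA and the D-type and E-type cyclins. From each other list the 3 largest called rises and falls are named. Alternatives were DESeq2 1.42.0, limma-voom (limma 3.58.1), 2 other normalizations, library size alone, 3 other filters, a replicate block, a test against 1.2-fold and each library left out. The scripts were tested on simulated data.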

Additional observations from a re-analysis of the deposited data

How the results depend on the processing

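The 9 calls among the members were also 9 with DESeq2, 10 with limma-voom, with each other normalization and with each other filter, and 6 to 10 without 1 library. Against a 1.2-fold change, the counts were 868 of all genes, 1 member, 1 other replication gene, 1 other G1/S regulator and 1 mitosis gene. Of the 47 other replication genes, 13 were called in the main fit, 5 with DESeq2 and 4 to 7 without 1 library, and the cause was not tested. Replicate numbers did not pair the libraries (correlation of same-numbered deviations -0.0147, 0.0277 and 0.0596, against -0.0937 to 0.0627 for other pairs). With the replicate block 12 members were called, 6 higher and 6 lower, and the count of all genes called was 4444. The median level per length of the members in E8 control was 19.9 with merged exons and 26.1 with the longest transcript. Among 704 recomputed differences of members, 23 changed sign, all of genes not called and near 0, and 29 of the 35 members not called were called in no alternative. With upper quartile scaling MCM3, RFC5 and POLD1 were -0.0040, -0.0050 and -0.0077. With a filter of 1 CPM in 3 libraries they were -0.0012, -0.0021 and -0.0049, and with filterByExpr RFC5 was -0.0007 and POLD1 -0.0034. With library size alone RFC3 was 0.0081. Without 1 library in turn, the ranges of the members that changed sign were -0.0365 to 0.0100 for MCM2, -0.0024 to 0.0194 for MCM3, -0.0461 to 0.0003 for GINS3, -0.0257 to 0.0322 for RFC3, -0.0405 to 0.0231 for RFC4, -0.0341 to 0.0393 for RFC5, -0.0370 to 0.0245 for POLD1 and -0.0558 to 0.0005 for TYMS. The intervals of 3 members that were not called, CCNE2, E2F2 and POLA2, reached past 1.2-fold, and the cause was not tested.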
